A study of Mus musculus with 8 samples.

Results

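The account covers 37 mouse genes of DNA damage signalling and repair, taken from a fixed list of gene symbols and placed in 7 repair routes by textbook role. They are 37 of the 46983 gene identifiers in a table of RNA-seq read counts from tail epidermis, and all 37 were found and had enough reads to be tested. The samples were 8 mice aged 8 weeks, with 1 library per mouse, 4 in a control group (CTR) and 4 in a knockout group (KO). CTR mice had the genotype K14-Cre/+ Ppp1r8 fl/+, which leaves 1 wild-type allele of Ppp1r8, and KO mice had K14-Cre/+ Ppp1r8 fl/-, with 1 floxed and 1 null allele. Ppp1r8 encodes NIPP1, a nuclear regulator of the protein phosphatase PP1, and the study asked what it does in the epidermis. Both groups carried the same Cre transgene under the keratin 14 promoter, which is active in basal keratinocytes, so a floxed allele is expected to be lost in keratinocytes and their descendants and not in other cell types of the sheet. The transgene is Tg(KRT14-cre)1Amc/J and the Ppp1r8 alleles of the strain are Ppp1r8tm1Ave and Ppp1r8tm1.1Itl. The tail epidermis was peeled from the dermis after dispase digestion, without cell sorting in the protocol.

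DNA damage is first sensed and signalled. The kinases ATM, ATR and DNA-PK mark broken or stalled DNA, mediators such as MDC1 gather on phosphorylated histone H2AX, and the checkpoint kinases CHK1 and CHK2 carry the signal on. Separate routes then repair separate lesions: end joining and homologous recombination act on double-strand breaks, base excision repair on damaged bases and single-strand breaks, nucleotide excision repair on bulky adducts such as those made by ultraviolet light, mismatch repair on copying errors, and the Fanconi anaemia pathway on crosslinks. The epidermis is exposed to light and renews itself from dividing basal cells, so all of these routes are of interest there.

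Library totals ranged from 16696212 to 21571935 counts. Ppp1r8 itself lay between 34.7 and 41.6 CPM (library-normalised counts, scaled to a common library size) in CTR and between 28.4 and 47.4 in KO (log2 fold change -0.06, adjusted p = 0.789). These counts run over all exons of the gene and do not check the deletion. The keratinocyte label was borne out by the markers Krt5 (7964 to 9356 CPM in CTR, 8102 to 8571 CPM in KO) and Krt14 (3761 to 4606 and 4229 to 4860 CPM). Both had overlapping groups. The list of 8 basal genes that holds them summed to 18830 to 20710 CPM in CTR and 17240 to 18110 CPM in KO. The Y-linked genes Ddx3y, Uty, Kdm5d and Eif2s3y were at 0 counts in all 8 libraries. A gene's level in such bulk tissue depends on both the number of cells that express it and the RNA per cell, and a change in one cannot be told apart from a change in the other. The p-values weigh the difference between the groups against the spread between mice of the same group.

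Of the 37 genes, 6 were lower in KO (Parp1, Prkdc, Xrcc5, Lig3, Mdc1 and Atr) and 2 were higher (Nbn and Xrcc3), at an adjusted p below 0.05 in edgeR's quasi-likelihood test with Benjamini-Hochberg adjustment over all tested genes. The other 29 did not pass. The 8 called genes made up 21.6% of the list, and 23.7% of the 15638 genes tested were called, so the list held about the same share of called genes as the transcriptome. Over all tested genes 12.2% were called lower and 11.5% higher. The median log2 fold change of the 37 was -0.14, beside 0.00 over all tested genes, and 23 of the 37 lay below 0. The ranges of the groups did not overlap in 10 of the 37 genes, and in 26.2% of all tested genes. Only Parp1 changed by at least 2-fold, against 4.02% of tested genes that were lower by that much. The 29 genes that did not pass had log2 fold changes between -0.36 and 0.35 and adjusted p-values between 0.0621 and 0.979.

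**Figure D1:**
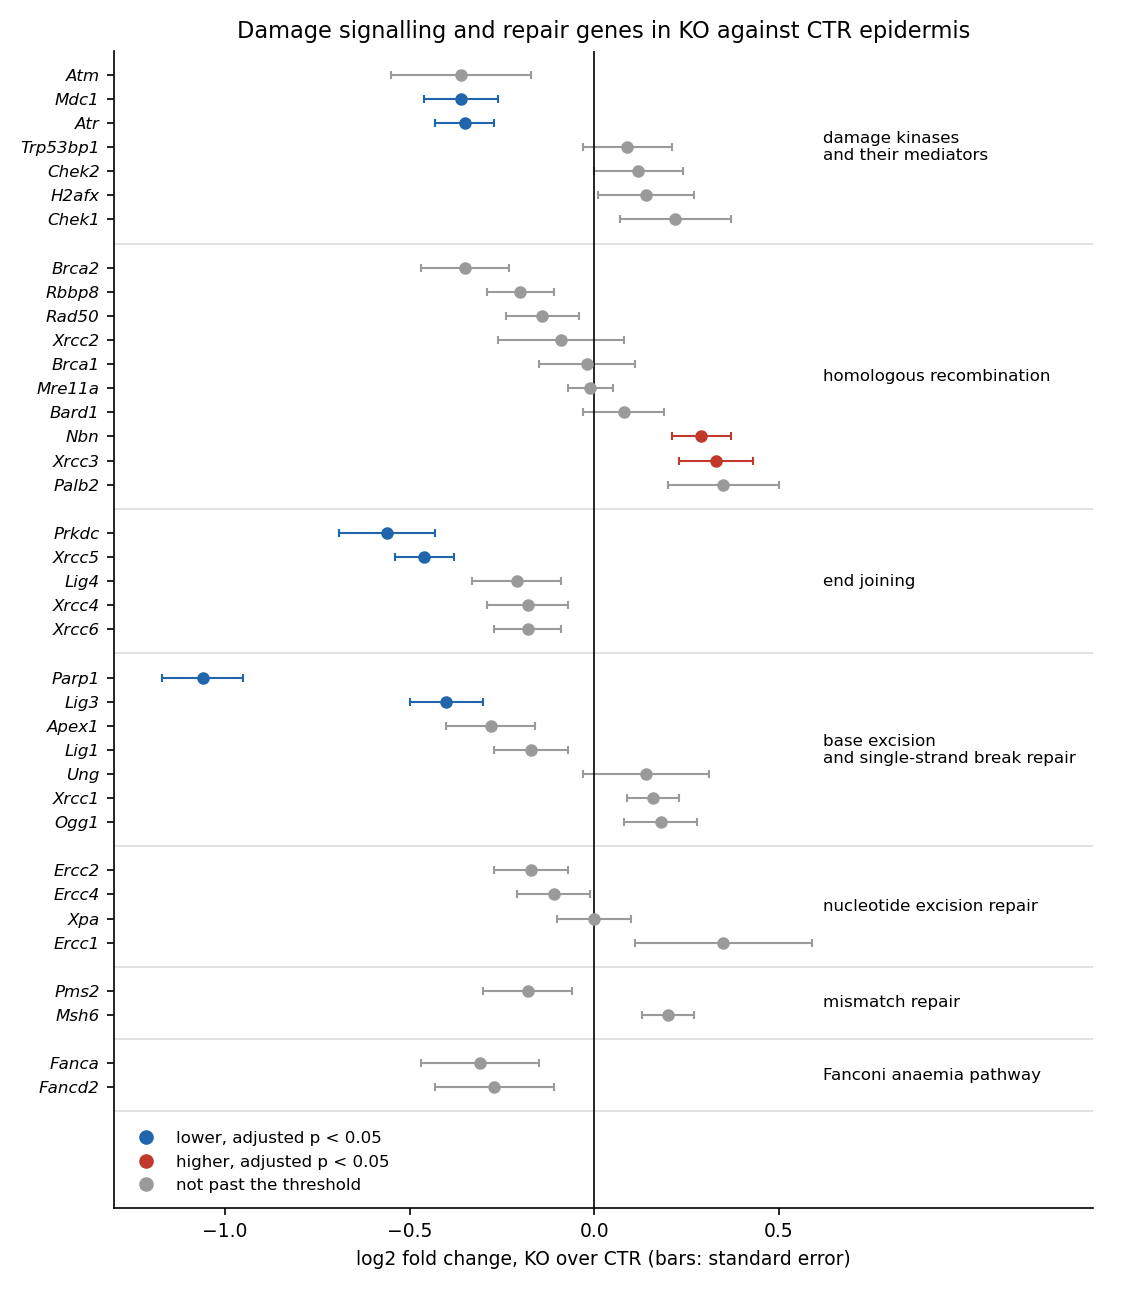
Log2 fold change (KO over CTR, horizontal axis) of each of the 37 genes, grouped by repair route; points are the fitted values, bars their standard errors, and colour marks genes past an adjusted p of 0.05. Parp1 stands farthest from 0 at -1.06, all 5 listed end joining genes lie below 0, and both genes that rose belong to homologous recombination.

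RefSeq promoter sequences (build GRCm38.p6, 250 bases before to 50 bases after the start) were at hand for Atr, Mdc1, Xrcc3, Xrcc5, Lig3 and Parp1 among the called genes, and for 30 of the 37 genes. Those of Parp1, which fell most, of Xrcc5, which also fell, and of Xrcc3, which rose, are printed 5′ to 3′ on the strand of the gene to show how unlike the start regions of called genes were in 2 common promoter elements. Capitals mark matches to the GC box (GGGCGG) and to the CCAAT box (CCAAT), each on either strand. The regions are chr1:180568641-180568940 on the plus strand for Parp1, chr1:72307171-72307470 on the plus strand for Xrcc5 and chr12:111813830-111814129 on the minus strand for Xrcc3.
Parp1: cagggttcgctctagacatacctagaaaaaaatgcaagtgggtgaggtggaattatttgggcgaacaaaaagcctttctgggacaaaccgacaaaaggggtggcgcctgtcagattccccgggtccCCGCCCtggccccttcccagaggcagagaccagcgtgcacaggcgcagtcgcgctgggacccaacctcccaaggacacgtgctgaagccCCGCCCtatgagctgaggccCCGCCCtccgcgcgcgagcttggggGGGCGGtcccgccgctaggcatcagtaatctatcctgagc
Xrcc5: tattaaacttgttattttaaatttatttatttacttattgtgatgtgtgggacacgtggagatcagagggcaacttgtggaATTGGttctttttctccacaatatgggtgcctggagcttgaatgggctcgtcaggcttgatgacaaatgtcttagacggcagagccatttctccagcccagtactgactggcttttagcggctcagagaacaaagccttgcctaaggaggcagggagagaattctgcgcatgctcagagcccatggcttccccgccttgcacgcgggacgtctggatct
Xrcc3: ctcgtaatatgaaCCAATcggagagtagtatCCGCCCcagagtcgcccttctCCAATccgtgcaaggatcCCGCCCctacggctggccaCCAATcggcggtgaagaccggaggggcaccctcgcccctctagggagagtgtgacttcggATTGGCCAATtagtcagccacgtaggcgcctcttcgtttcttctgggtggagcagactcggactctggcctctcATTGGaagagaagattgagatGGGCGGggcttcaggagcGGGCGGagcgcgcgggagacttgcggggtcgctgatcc
The Parp1 window held 4 GC boxes and 0 CCAAT boxes. The Xrcc5 window held 0 GC boxes and 1 CCAAT box. The Xrcc3 window held 4 GC boxes and 6 CCAAT boxes. Atr had 2 GC boxes and 0 CCAAT boxes, Mdc1 1 of each, and Lig3 1 GC box and 0 CCAAT boxes. No window of these 6 genes matched TTTNGCGC, a motif of the type bound by E2F factors. The 30 genes had 33 promoters in the table. A GC box was found in 23 of the 33 (69.7%), beside 35.7% of all 32851 promoters, and a CCAAT box in 18 of the 33 (54.5%), beside 37.4%. The E2F-type motif matched in 2 of the 33 (6.06%), beside 1.38%. These are matches of letters in a window and were not tested against the fold changes.

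Among the 7 damage kinases and their mediators, Atr and Mdc1 fell and none rose, and the route's median log2 fold change was 0.09. Atr, the kinase that answers to stalled replication forks (chromosome 9, 95857597 to 95951781, plus strand, GRCm38), measured 50.55, 47.4, 45.7 and 48.4 CPM in CTR 1 to 4 and 36.9, 36.6, 41.7 and 35.5 CPM in KO 1 to 4. Every KO library lay below every CTR library, and the log2 fold change was -0.35 (SE 0.08, adjusted p = 0.00966). Atr has the longest annotated exon sequence of the list, 23629 bases, and its call was lost when the trend of fold change with exon length was removed (log2 fold change -0.10, adjusted p = 0.415). Its exons share 1188 bases with genes on the opposite strand and 178 bases with a gene on its own strand.

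Mdc1, the scaffold that binds phosphorylated H2AX (chromosome 17, 35841515 to 35859670, plus strand), measured 40.6, 44.2, 41.5 and 44.0 CPM in CTR and 27.4, 33.5, 38.1 and 33.7 CPM in KO. The groups did not overlap, KO 3 lay nearest to CTR, and the log2 fold change was -0.36 (SE 0.10, adjusted p = 0.026). The call was lost in 5 of the 8 fits that left out a library (CTR 2, CTR 3, CTR 4, KO 2 or KO 4), with an adjusted p of up to 0.0639. H2afx, which encodes the histone itself and had the highest level of the route per kilobase of exon (32.7 CPM per kilobase over all libraries), measured 44.6, 38.6, 41.3 and 47.9 CPM in CTR and 54.15, 44.2, 37.2 and 54.0 CPM in KO. Its KO libraries held both the lowest and the highest of the 8 values, and it did not pass the test (log2 fold change 0.14, adjusted p = 0.461).

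Atm, the kinase for double-strand breaks, had a fold change as low as that of Mdc1 with a far larger spread. It measured 26.7, 35.0, 22.95 and 24.6 CPM in CTR and 17.7, 20.8, 29.45 and 17.4 CPM in KO (log2 fold change -0.36, SE 0.19, adjusted p = 0.187). KO 3 was above 3 of the 4 CTR libraries, while the other KO libraries were below all 4. Without KO 3 the adjusted p of Atm was 0.0249, the 1 alternative of 17 in which it passed. That fit called 27.6% of all tested genes, beside 23.7% in the main fit. With the length trend removed, the log2 fold change of Atm was -0.24 (adjusted p = 0.263). The checkpoint kinase genes Chek1 (6.40 to 8.79 CPM in CTR, 7.60 to 10.5 CPM in KO) and Chek2 (6.97 to 8.41 and 7.76 to 9.37 CPM) had overlapping groups. So did Trp53bp1, whose product 53BP1 shields broken ends from trimming (41.9 to 53.9 and 43.3 to 60.5 CPM). The log2 fold changes of these 3 genes were 0.22, 0.12 and 0.09.

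In homologous recombination, which copies the missing sequence from the sister chromatid, Nbn and Xrcc3 rose and none of the 10 genes fell. The median log2 fold change was -0.02. Nbn encodes the signalling subunit of the MRE11-RAD50-NBS1 complex that binds broken ends (chromosome 4, 15957925 to 15992589, plus strand). It measured 29.8, 29.2, 33.7 and 33.3 CPM in CTR and 36.5, 37.8, 40.4 and 38.8 CPM in KO. All KO libraries were above all CTR libraries (log2 fold change 0.29, SE 0.08, adjusted p = 0.0248). The call was lost without CTR 1, CTR 2 or KO 4, with an adjusted p of up to 0.0659, and with the length trend removed (adjusted p = 0.0597).

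The partners of Nbn in that complex did not pass the test. Mre11a, the nuclease, lay between 28.0 and 28.6 CPM in CTR and between 27.5 and 29.0 CPM in KO, with a log2 fold change of -0.01 (SE 0.06). Rad50, the ATPase, lay between 30.4 and 37.7 CPM in CTR and between 25.7 and 34.5 CPM in KO (log2 fold change -0.14). Per kilobase of exon, the level of Nbn over that of Mre11a was 2.44 to 2.75 in CTR and 3.11 to 3.26 in KO, without overlap. The ratio of Rad50 to Mre11a, 1.18 to 1.49 in CTR and 1.03 to 1.31 in KO, overlapped.

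Xrcc3, of a protein that acts in strand exchange (chromosome 12, 111803192 to 111813873, minus strand), measured 10.65, 12.0, 11.3 and 13.8 CPM in CTR and 14.8, 15.5, 14.4 and 15.25 CPM in KO. The groups did not overlap, with CTR 4 closest to KO (log2 fold change 0.33, SE 0.10, adjusted p = 0.0438). This was the weakest call of the 8. It was lost without a count filter, with the length trend removed (adjusted p = 0.0679) and in 6 of the 8 fits without 1 library (CTR 1, CTR 2, CTR 3, KO 1, KO 2 or KO 4), with an adjusted p of up to 0.108. Xrcc2, of the same route, had overlapping groups (log2 fold change -0.09).

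The genes of the BRCA complexes did not pass. Brca1 had a log2 fold change of -0.02 and its partner Bard1 one of 0.08. Brca2, the breast cancer gene that acts in the strand exchange step, lay between 26.2 and 33.4 CPM in CTR and between 19.7 and 27.4 CPM in KO (log2 fold change -0.35, adjusted p = 0.0621). It passed with DESeq2 and without KO 4, the KO library with its highest value. Palb2, which bridges BRCA1 and BRCA2, lay between 3.71 and 4.56 CPM in CTR and between 4.40 and 6.30 CPM in KO (log2 fold change 0.35, adjusted p = 0.121). Rbbp8, whose product CtIP starts the trimming of ends, had a log2 fold change of -0.20 (adjusted p = 0.151).

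In end joining, which ligates broken ends without a template, all 5 listed genes lay below 0, with a median log2 fold change of -0.21. The 9 further genes of this route, taken up below, had a median of 0.05, with 4 below 0. Prkdc and Xrcc5 fell and the other three did not pass. Prkdc encodes the catalytic subunit of DNA-PK (chromosome 16, 15637866 to 15842235, plus strand). It measured 27.3, 31.85, 29.0 and 24.2 CPM in CTR and 17.3, 20.4, 22.6 and 16.1 CPM in KO, with CTR 4 and KO 3 close to each other but no overlap. The log2 fold change was -0.56 (SE 0.13, adjusted p = 0.0117). It was -0.40 with the length trend removed (adjusted p = 0.00964), and the call held in all 17 alternatives run.

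Xrcc5 encodes Ku80, which with Ku70 forms the ring that grips DNA ends and recruits DNA-PK (chromosome 1, 72307421 to 72394952, plus strand). It measured 41.7, 39.2, 36.6 and 41.4 CPM in CTR and 30.3, 31.45, 28.15 and 25.8 CPM in KO. The highest KO library was well below the lowest CTR library (log2 fold change -0.46, SE 0.08, adjusted p = 0.0049), and the call held in all 17 alternatives. Xrcc6, the gene of Ku70, lay between 24.8 and 29.5 CPM in CTR and between 21.8 and 25.9 CPM in KO (log2 fold change -0.18, adjusted p = 0.159). The ratio of Xrcc5 to Xrcc6 per kilobase was 2.17 to 2.76 in CTR and 1.74 to 2.53 in KO, and that of Prkdc to Xrcc6 0.29 to 0.435 and 0.211 to 0.318. Both ratios overlapped between groups, so unequal change within DNA-PK was not resolved. Lig4, the ligase of this route, and Xrcc4, its partner, had log2 fold changes of -0.21 and -0.18 and adjusted p-values of 0.218 and 0.26.

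Base excision and single-strand break repair held the largest change of the list. Of its 7 listed genes, Parp1 and Lig3 fell and none rose, and the median log2 fold change was -0.17. The 16 further genes of this route had a median of 0.15, with 5 below 0. Parp1 encodes the enzyme that binds strand breaks and builds poly(ADP-ribose) chains there to recruit repair factors (chromosome 1, 180568924 to 180601254, plus strand). It measured 41.5, 36.9, 48.1 and 45.05 CPM in CTR and 21.75, 21.1, 22.3 and 16.8 CPM in KO. The means were 42.9 ± 4.80 CPM in CTR and 20.5 ± 2.49 CPM in KO (SD, n = 4 each), a level 2.09-fold lower in KO. The log2 fold change was -1.06 (SE 0.11, adjusted p = 0.000468), it was -1.04 with the length trend removed, and the call held in all 17 alternatives. Parp2, of the related enzyme, was at 25.04 ± 1.13 CPM in CTR and 30.5 ± 3.43 CPM in KO (SD, n = 4 each, log2 fold change 0.28, adjusted p = 0.0515, past the threshold in 4 of 17 alternatives). Per kilobase of exon, the ratio of Parp1 to Parp2 was 1.02 to 1.37 in CTR and 0.34 to 0.588 in KO, without overlap.

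Lig3, the ligase that closes the repaired strand (chromosome 11, 82781108 to 82804274, plus strand), measured 66.2, 71.1, 71.95 and 66.5 CPM in CTR and 46.4, 52.2, 62.8 and 48.1 CPM in KO. KO 3 was again nearest to CTR and the groups did not overlap (log2 fold change -0.40, SE 0.10, adjusted p = 0.0165, past the threshold in all 17 alternatives). Its exons share 1826 bases with Rffl on the opposite strand, and Rffl was also lower (log2 fold change -0.42, adjusted p = 0.00465). No source used here says whether the counting used strand, so the reads of these bases may belong to either gene. In all, 22 of the 37 genes share exon bases with another gene, among them Apex1 (877 bases) and Ercc2 (1769 bases) with genes on the opposite strand. Xrcc1, the scaffold that holds LIG3, lay between 34.1 and 39.6 CPM in CTR and between 39.2 and 41.3 CPM in KO (log2 fold change 0.16, adjusted p = 0.139). The ratio of Lig3 to Xrcc1 per kilobase was 1.34 to 1.67 in CTR and 0.901 to 1.27 in KO, without overlap. Of 9 such ratios compared over all routes, 3 did not overlap: Nbn to Mre11a, Parp1 to Parp2 and Lig3 to Xrcc1. Each has a called gene as its numerator, measured in the same libraries, so these ratios are not separate evidence. The ratios of Bard1 to Brca1, Lig4 to Xrcc4 and Ercc4 to Ercc1 overlapped.

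Apex1, the nuclease that cuts at sites without a base, had the highest level of all 37 genes per kilobase, 41.9 CPM per kilobase over all libraries. It measured 62.2, 55.5, 61.5 and 82.1 CPM in CTR and 58.4, 52.1, 50.7 and 54.0 CPM in KO, with CTR 4 above all others (log2 fold change -0.28, adjusted p = 0.104). With the length trend removed it passed (-0.36, adjusted p = 0.02). The glycosylase gene Ogg1, which removes oxidised guanine, lay between 6.88 and 7.15 CPM in CTR and between 7.78 and 8.13 CPM in KO. Its groups did not overlap, as in 26.2% of all tested genes, but the difference did not pass (log2 fold change 0.18, adjusted p = 0.215). Ung, which removes uracil, and Lig1, the replicative ligase, had log2 fold changes of 0.14 and -0.17 with overlapping groups.

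**Figure D2:**
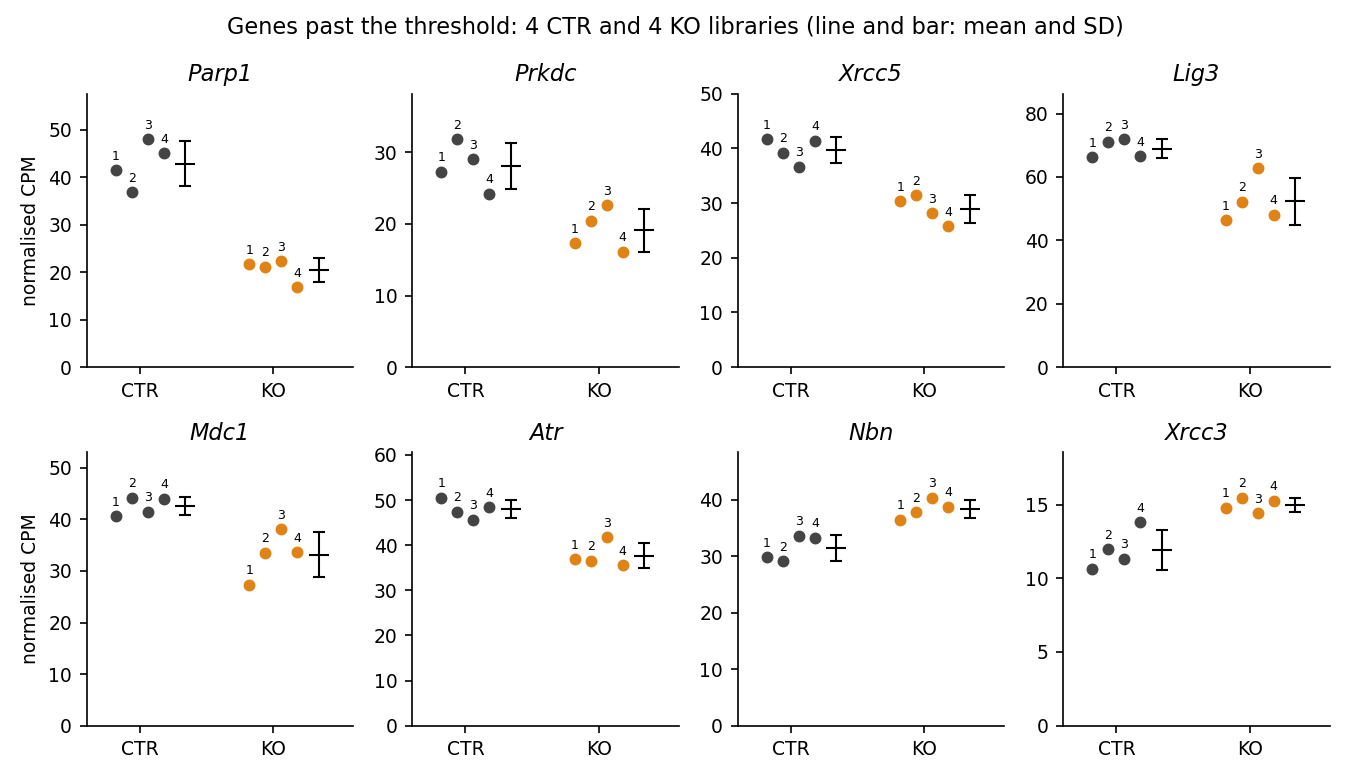
Normalised CPM (vertical axes, from 0) of the 8 genes past the threshold in each CTR and KO library; points carry the replicate number, and the line and bar beside them give the mean and SD of 4 libraries. No gene has overlapping groups, as in 26.2% of all tested genes. These 8 genes were picked by the test on the same libraries, so the lack of overlap is no further evidence. Parp1 shows the widest gap (36.9 CPM in the lowest CTR library, 22.3 CPM in the highest KO library), and KO 3 is the highest KO library for Parp1, Prkdc, Lig3, Mdc1 and Atr.

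No gene of nucleotide excision repair, mismatch repair or the Fanconi anaemia pathway on the list passed the test. In nucleotide excision repair the log2 fold changes of the 4 genes ran from -0.17 to 0.35, with a median of -0.05. Ercc2, the gene of the helicase XPD and the one with the highest level per kilobase of the route, measured 39.5, 30.0, 34.5 and 35.5 CPM in CTR and 33.2, 31.7, 27.7 and 31.1 CPM in KO (log2 fold change -0.17, adjusted p = 0.221). The KO values sat in the lower range of CTR, with overlap. Xpa, which checks the lesion, was at 14.65 ± 0.732 CPM in CTR and 14.7 ± 1.21 CPM in KO (SD, n = 4 each). Ercc4 and Ercc1 encode the nuclease that cuts on the 5′ side, and their log2 fold changes were -0.11 and 0.35.

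Of the mismatch repair genes, Msh6, a subunit of the complex that detects mispaired bases, measured 63.8, 57.5, 61.9 and 54.5 CPM in CTR and 67.2, 67.0, 64.9 and 73.5 CPM in KO. All KO libraries were above all CTR libraries, but the difference did not pass (log2 fold change 0.20, SE 0.07, adjusted p = 0.0808). Pms2, of the nuclease that acts next, had a log2 fold change of -0.18, and its exons share 479 bases with Gm42421 and Rsph10b on the same strand. The Fanconi anaemia genes were the lowest on the list per kilobase with Palb2. Fancd2, whose ubiquitylated product is the hub of the pathway, measured 6.51, 7.41, 7.24 and 6.59 CPM in CTR and 4.14, 7.08, 6.11 and 5.67 CPM in KO (log2 fold change -0.27, adjusted p = 0.259). KO 1 was the lowest library and KO 2 was inside the CTR range. Fanca, a subunit of the ligase complex that modifies it, had a log2 fold change of -0.31 (adjusted p = 0.175).

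Across the 37 genes the KO libraries differed in how far they departed from CTR. The median difference from the CTR mean on the log2(CPM + 0.5) scale was -0.16, -0.03, -0.13 and -0.05 in KO 1 to 4. KO 3 was the highest KO library for 5 of the 6 genes that fell, all but Xrcc5, and for 12 of all 37. The 6 were picked by the test on the same libraries. Over all tested genes, KO 3 also lay nearest to CTR on the first principal component, the main axis of variation between libraries (61.8% of the variance). Its score was 15.87, beside 64.33, 25.64 and 47.3 in KO 1, KO 2 and KO 4 and -46.29 to -32.07 in CTR. KO 3 was also the KO library with the most hair shaft and inner root sheath transcripts: the summed level of 18 such genes was 378.6, 3225, 4461 and 1039 CPM in KO 1 to 4, beside 8071 to 15030 CPM in CTR. Of these 18 genes 16 fell, among them the hair keratin genes Krt33b (log2 fold change -3.21) and Krt81 (-3.01). The count was 7 with robust estimation and 10 without CTR 2, CTR 3 or KO 4. The part of these transcripts in the fall of the repair genes was not tested.

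**Figure D3:**
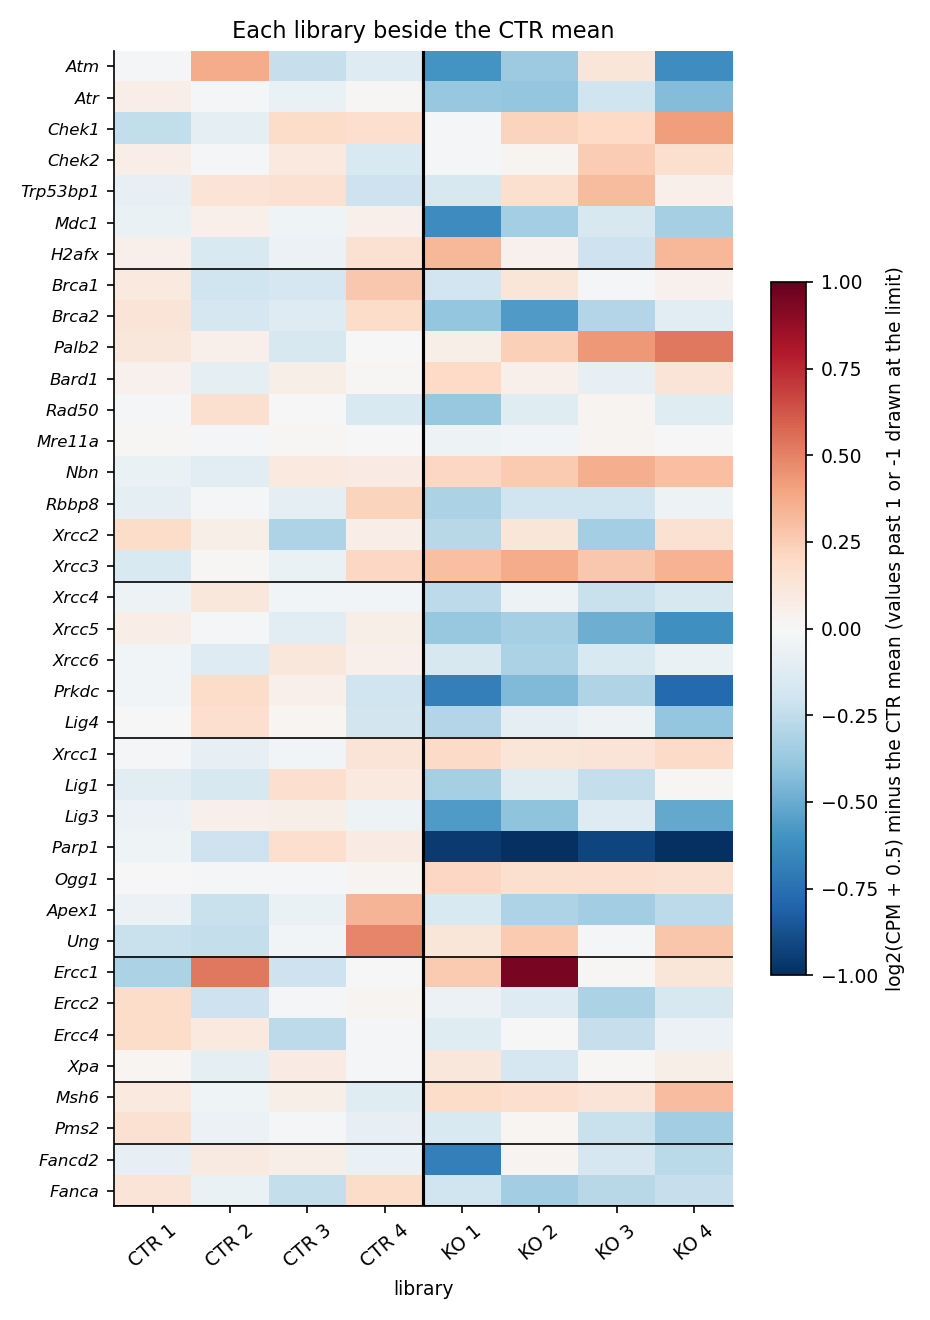
Difference of each library from the CTR mean (colour, log2(CPM + 0.5) scale, drawn at the limit past 1 or -1) for the 37 genes in rows, split by route with black lines, and the 8 libraries in columns. Parp1 is the darkest row in every KO library, Prkdc and Atm are darkest in KO 1 and KO 4, and Mre11a is nearly blank throughout.

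The other genes of the same routes gave a mixed picture. Of 106 further genes, 105 could be tested (Atrip had too few reads), 5 rose and 6 fell, and the median log2 fold change was 0.00. The 11 called genes were 10.5% of those tested, beside 23.7% of all genes tested. Ercc5 changed most. It encodes XPG, the nuclease that cuts on the 3′ side in nucleotide excision repair, and it measured 53.01, 45.04, 46.7 and 43.4 CPM in CTR and 79.5, 78.5, 71.9 and 77.35 CPM in KO. The groups stood far apart (log2 fold change 0.71, SE 0.08, adjusted p = 0.000565). In the same route Ercc8, of transcription-coupled repair, rose (0.37, adjusted p = 0.024) and Ddb2, of the damage sensor for ultraviolet lesions, fell (-0.27, adjusted p = 0.0416), while 14 of 17 did not pass.

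In end joining the gap-filling polymerase genes Poll (log2 fold change 0.54, adjusted p = 0.00869) and Polm (0.28, adjusted p = 0.0479) rose, against the fall of Prkdc and Xrcc5. Tdp1, which clears blocked ends, fell (-0.49, adjusted p = 0.0384). In homologous recombination Rad54l, of a motor protein that moves along DNA, and Mus81, of a nuclease for branched DNA, fell (log2 fold changes -0.55 and -0.53, adjusted p = 0.0393 and 0.0305), and the other 17 of 19 did not pass. Among the mediators Rif1, which acts with 53BP1, and Brcc3, a deubiquitylase, fell (-0.31 and -0.25, adjusted p = 0.019 and 0.0318), as did none of the other 15. In base excision repair 1 of 16 was called, the glycosylase gene Smug1 (0.26, adjusted p = 0.047). None of the 5 further mismatch repair genes, the 13 further Fanconi genes or the 9 genes of translesion synthesis and direct reversal passed. Ercc5 and Poll held in all 17 alternatives, and each of the other 9 lost its call in at least 4, counting fits without 1 library.

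**Figure D4:**
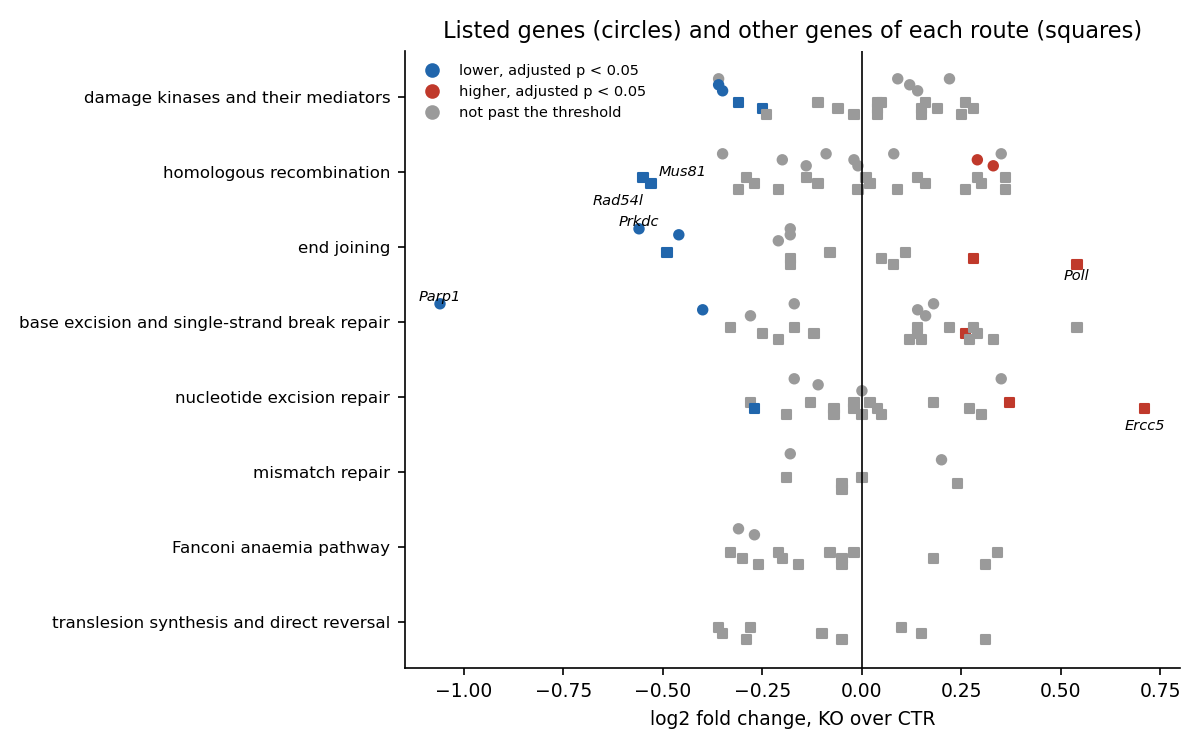
Log2 fold change (KO over CTR, horizontal axis) of the 37 listed genes (circles) and of 105 further genes (squares), with 1 line per route and colour for genes past an adjusted p of 0.05. Most genes are grey and lie close to 0; Parp1 (-1.06) and Ercc5 (0.71) are the extremes.

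Longer genes had lower fold changes, in the list and in the whole table. Spearman's rho between exon length and log2 fold change was -0.41 across the 37 genes and -0.19 across 15598 tested genes with a length, given as a description because genes of 1 set of libraries share those libraries. Over all tested genes the median log2 fold change was 0.08 for exon lengths up to 2000 bases and -0.20 above 12000 bases. The 5 listed genes above 12000 bases (Atr, Trp53bp1, Brca2, Rbbp8 and Prkdc) had a median of -0.35. In the longest genes of the table, the median difference from the CTR mean was -0.32, -0.16, -0.01 and -0.28 in KO 1 to 4. The CTR libraries differed among themselves too, at 0.02, 0.11, -0.01 and -0.11 in CTR 1 to 4. KO 3, nearest to CTR for most listed genes that fell, was thus also nearest to CTR in the length trend. A loess fit of each library on length was removed in a further alternative, chosen after the data were seen. The median of the 37 genes was then -0.08, Parp1, Prkdc, Xrcc5, Lig3 and Mdc1 remained lower, Apex1 joined them, Atr dropped out, and of the 2 genes that rose neither passed. Trp53bp1 became the 1 gene called higher (0.26, adjusted p = 0.0461).

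**Figure D5:**
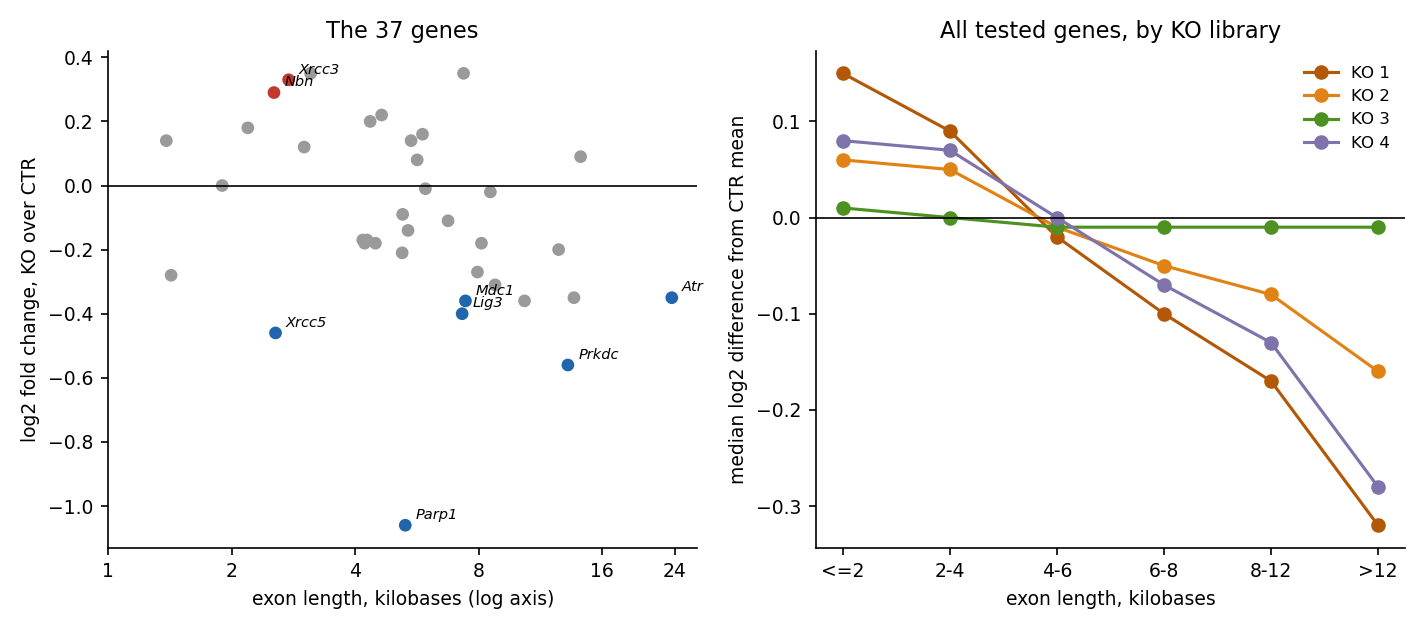
Left, log2 fold change (KO over CTR) of the 37 genes against exon length in kilobases on a log axis, with genes past the threshold coloured and named; right, median log2 difference of all tested genes from the CTR mean by exon length class, with 1 line per KO library. Xrcc5 is short and lower, Atr is the longest, and the line of KO 3 stays flat (-0.01 above 12 kilobases) while that of KO 1 falls to -0.32. The CTR libraries, not drawn, lay between -0.11 and 0.11 in that class.

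Genes of cell division were read beside the list because several repair genes act in replication. Of 30 genes of S phase and mitosis, 2 rose (Bub1, of the spindle checkpoint, 0.44, and Mcm6, of the replicative helicase, 0.40) and none fell. The called share was 6.67%, below the 23.7% of all tested genes. In some alternatives 1 fell: with DESeq2, with robust estimation, and without CTR 2, KO 2 or KO 3. Their summed level was 1041 to 1293 CPM in CTR and 1119 to 1300 CPM in KO. The proliferation marker Mki67 had a log2 fold change of -0.19 (adjusted p = 0.126) and Top2a one of -0.03 (adjusted p = 0.806). Without KO 3, Mki67 passed as lower (adjusted p = 0.0272). The call of Bub1, of Mcm6 or of both was lost in every fit without 1 library except that without KO 3, and the number of these genes called higher was between 0 and 4 over such fits.

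Of 21 tested targets of p53, which ATM, ATR and the checkpoint kinases activate, 5 rose and none fell. They were the death genes Pmaip1 (1.67 ± 0.776 CPM in CTR, 8.21 ± 3.54 CPM in KO, adjusted p = 0.00409) and Fas (1.31 ± 0.203 and 3.10 ± 0.922 CPM, adjusted p = 0.00669), the receptor gene Eda2r (3.37 ± 0.387 and 8.30 ± 0.249 CPM, adjusted p = 0.000316), Ccng1 (56.3 ± 5.31 and 74.85 ± 2.63 CPM, adjusted p = 0.00581) and Sesn2 (log2 fold change 0.33, adjusted p = 0.0468); values are means ± SD, n = 4 each. The call of Sesn2 was lost with library totals, with the length trend removed and in 7 of the 8 fits without 1 library (all but that without CTR 2), with an adjusted p of up to 0.119, while the other 4 held in all 17 alternatives. Of 2 classical targets neither passed: Cdkn1a, which stops the cell cycle, had a log2 fold change of 0.08 (adjusted p = 0.505) and Mdm2, which degrades p53, one of -0.14 (adjusted p = 0.135). The share of called genes was 23.8%, close to the 23.7% of all tested genes in either direction. All the called targets were higher, while 11.5% of all tested genes were called higher and 12.2% lower.

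Markers of keratinocyte layers and of other cell types differed between the groups too. Of 8 suprabasal markers 4 rose, Krt1 (log2 fold change 2.88), Krt10 (0.99), Flg (0.99) and Lor (0.83), and Dsg1a fell (-0.31, adjusted p = 0.0252), a call lost in 6 of the 8 fits without 1 library. The other three did not pass. Their summed level, most of it from Krt1 and Krt10, was 23590 to 26670 CPM in CTR and 47970 to 65350 CPM in KO. Of 8 basal markers 4 fell, Itgb4 (-0.89), Krt15 (-0.54), Col17a1 (-0.45) and Itga6 (-0.36), and without KO 4 only 2 did (Itgb4 and Krt15). The rest of the basal list, Krt5 (-0.08), Krt14 (0.10), Trp63 (-0.14) and Dst (-0.47), did not pass. Langerhans and dendritic cell markers summed to 268.7 to 337.7 CPM in CTR and 361.4 to 501.0 CPM in KO, and 5 of 8 rose, among them Cd207 (0.80). Melanocyte markers summed to 248.9 to 364.1 and 332.1 to 556.4 CPM, with 4 of 8 higher, among them Dct (0.78), and Mitf lower (-0.53). Without CTR 2, CTR 3 or CTR 4 the number higher was 2. Of 5 tested T cell markers 3 rose, Cd3e (2.47, adjusted p = 0.00407), Trdc (2.37, adjusted p = 0.00725) and Trbc2 (0.89, adjusted p = 0.0174), and Thy1 fell (-0.79, adjusted p = 0.00983). Cd3e was at 0.16 CPM in CTR and 0.888 CPM in KO on average, so that the sum of the T cell list (21.56 to 32.67 CPM in CTR, 26.21 to 33.86 CPM in KO) rests on Trbc2 and Thy1 and overlapped. With a filter of at least 1 CPM in 4 libraries Cd3e and Trdc were not tested. Sums of fibroblast markers (33.84 to 52.74 and 17.46 to 56.07 CPM) and endothelial markers (1.93 to 4.331 and 1.835 to 2.277 CPM) overlapped. B cell markers summed to 1.175 to 1.553 CPM in CTR and 0.3034 to 0.9001 CPM in KO, with Ms4a1 at 0 in all libraries. The part of these shifts in the values of the repair genes was not tested.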

How the data were processed

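RNA-seq was done on tail epidermis of 8 mice, 1 library each. The authors deposited raw read counts per gene for 46983 Ensembl identifiers. Cutadapt 1.7.1, STAR 2.4.1d, featureCounts 1.4.6 and edgeR 3.8.6 are among the tools named, with build GRCm38, per the submitters' processing notes. The strand setting and the annotation release are not given in the sources used here. GENCODE M21 gave symbols and exon lengths. Libraries are stranded poly-A, per the labels' protocols.

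The test was edgeR's in R 4.3.3 (version 4.0.16, quasi-likelihood test, two-sided, group only, all 8 libraries) after trimmed-mean normalization and filterByExpr, which kept 15638 genes, with Benjamini-Hochberg adjustment over them and a threshold of 0.05. Adjusted p-values come from this test. The test was tried on simulated data first, with 50 genes changed at each of 4 folds. It recovered 0% of them at 1.25-fold, 28% at 1.5-fold, 74% at 2-fold and 96% at 4-fold. Of its 109 calls in the simulated data, 10 were false. In the real data 3700 genes were called, so recovery there need not be the same. Library totals were 16696212 to 21571935. Libraries were compared in pairs within groups and none agreed within sampling noise. Replicate numbers follow accession order and were not used as pairs, although same-numbered mice have neighbouring identifiers. Alternatives were other scalings, filters and tools (DESeq2 1.42.0, limma 3.58.1), leaving out each library and removing the length trend. The members and lists were chosen with earlier results of these data known.

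Values in every library are given for listed genes past the threshold and for the gene of each route with the most counts per kilobase; values of Atm were added after they were seen. Of the other lists, up to 4 called genes per list are named by size of change, given a mean of 1 CPM or more, with Mki67, Top2a, Cdkn1a and Mdm2; Sesn2, Dsg1a, Cd3e, Trdc, Mitf and Parp2 were added after their values were seen.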

Additional observations from a re-analysis of the deposited data

Results flagged for a closer look

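In 160 groups of 4 libraries (the 37 genes and the other named genes, CTR and KO apart), 1 library stood apart from the other three in 3 groups by Dixon's criterion for outliers. Chance gives about 1 in 20. Xrcc4, the partner of Lig4, was at 8.13 CPM in CTR 2, while the nearest of the other CTR libraries had 7.36 CPM, and this was the 1 case among 74 groups of the 37 genes. Bub1 was at 18.3 CPM in KO 4, with the nearest KO library at 13.9 CPM. Mcm6 was at 82.0 CPM in CTR 4, with the nearest CTR library at 59.1 CPM.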

How the results depend on the processing

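Under 17 alternatives, 16 of them planned and the removal of the length trend added after seeing the data, the count of listed genes lower in KO stayed between 5 and 7 (main value 6), and no value changed direction past the threshold. The count higher in KO (2) was 1 without a count filter, 1 with the length trend removed, and 0 to 2 when 1 library was left out. The list's median (-0.14, log2 scale) was -0.08 with the length trend removed and -0.15 to -0.09 otherwise. Of the other pathway genes, 5 were higher: 9 with upper-quartile factors, 8 with library totals, 3 without a count filter, 9 with DESeq2 and 2 to 8 with 1 library left out. Of the same genes 6 were lower: 3 with library totals, 2 without a count filter, 3 with the length trend removed and 0 to 4 with 1 library left out. The causes were not tested. Among 629 values of the 37 genes under the alternatives, 606 kept their side of the threshold, 18 lost it (Mdc1, Atr, Nbn and Xrcc3) and 5 gained it (Atm without KO 3, Brca2 with DESeq2 and without KO 4, and Apex1 and Trp53bp1 with the length trend removed). No fit with pairs was run: the labels number no replicates and name no litters. Mice given the same number here do have neighbouring identifiers across the groups, and whether those are littermates is not stated. Depth limits the weakest genes most, Fanca and Palb2, whose highest libraries had 4.38 and 6.30 CPM.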

Other observations

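Prkdc and Mcm4, a helicase subunit gene, start 466 bases apart on opposite strands, and were chosen here after their values were seen. Prkdc fell by 0.56 on the log2 scale, while Mcm4 measured 50.3 to 66.9 CPM in CTR and 57.8 to 67.7 CPM in KO (log2 fold change 0.12, adjusted p = 0.389).

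Ercc1 was highest in the library numbered 2 of both groups, at 27.3 CPM in CTR 2 beside 15.0 to 18.8 CPM in the other CTR libraries, and at 36.7 CPM in KO 2 beside 18.9 to 22.6 CPM in the other KO libraries. Those 2 mice have neighbouring identifiers, and the labels do not say whether they are littermates. The pattern was seen after the fact. Its neighbour Cd3eap, which shares 106 exon bases with it on the opposite strand, had a log2 fold change of -0.25 (adjusted p = 0.152).

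The X-inactivation RNA Xist, in mice whose Y-linked genes were at 0, was at 647.3 to 994.0 CPM in CTR and 330.4 to 573.6 CPM in KO (log2 fold change -0.92, adjusted p = 0.00817). Its annotated exons span 17946 bases, in the length class whose median lay below CTR in KO 1, KO 2 and KO 4. The difference held its call in all 17 alternatives, the removal of the length trend included.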
